A study of Rattus norvegicus with 72 samples.

Results

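Scgb1a1, Scgb3a2, Scgb3a1, Cyp2f4 and Aldh1a1 are 5 genes whose products are known from club cells, the domed secretory cells that line the small airways of the lung. They were picked by symbol from a table of 30042 gene symbols, and all 5 were present and had enough counts to be tested in every comparison. The table holds counts from the lungs of 72 Sprague-Dawley rats, all adult males, with 1 library per rat and 12 groups of 6. Rats breathed diesel particles (DEP) at 1000 or 200 ug/m3, or filtered air, in whole-body chambers for 6 hours on each of 4 days, and their lungs were taken 1, 7 or 27 days afterwards. In the sample titles the 1000 ug/m3 rats carry the letter H and the 200 ug/m3 rats the letter L, and each letter has its own air rats on each day, called air H and air L here. What the letters stand for is not stated in the labels. No rat carried a mutation or transgene per the labels, and what was sequenced was a piece of whole lung rather than isolated airway.

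Club cells release secretoglobins into the fluid that coats the airways, carry cytochrome P450 enzymes that act on inhaled chemicals, and can divide and give rise to ciliated cells when the lining is damaged. Scgb1a1 encodes club cell secretory protein, a major protein of airway lining fluid. Scgb3a2 encodes another small secretoglobin, described in mouse as a target of the lung transcription factor NKX2-1, and Scgb3a1 encodes one more, found in mouse mainly in larger airways. Cyp2f4 encodes a P450 that turns naphthalene into reactive products in rodent airways. Aldh1a1 encodes an enzyme that oxidises retinaldehyde to retinoic acid and is also made by cells other than club cells. In a piece of whole lung, a lower level of such a gene can mean fewer of the cells that make it or less of its RNA in each cell, and the 2 cannot be told apart here.

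The promoter sequences of the 5 members are shown because the levels of these genes moved together between rats. Each is the 250 bases before the gene start, written 5' to 3' on the strand of the gene, from RefSeq and its assembly GRCr8. Scgb1a1 is on the minus strand at chr1:215409687-215409936, Scgb3a2 is on the plus strand at chr18:36183495-36183744, Scgb3a1 is on the plus strand at chr10:34468916-34469165. Cyp2f4 is on the plus strand at chr1:91543518-91543767 and Aldh1a1 on the plus strand at chr1:227537370-227537619. Capitals mark matches on either strand to letters that FOXA proteins (TNTTTAC), C/EBP proteins (TTNNGNAA) and NKX2-1 (CTCAAG or CAAGTG) are known to bind, or to TATAAA. All 3 kinds of factor are known regulators of secretoglobin genes.
Scgb1a1: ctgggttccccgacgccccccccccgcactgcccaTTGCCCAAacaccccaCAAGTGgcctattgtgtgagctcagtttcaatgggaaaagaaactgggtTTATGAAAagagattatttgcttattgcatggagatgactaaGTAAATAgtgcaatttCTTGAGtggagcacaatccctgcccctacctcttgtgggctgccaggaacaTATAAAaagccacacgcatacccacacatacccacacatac
Scgb3a2: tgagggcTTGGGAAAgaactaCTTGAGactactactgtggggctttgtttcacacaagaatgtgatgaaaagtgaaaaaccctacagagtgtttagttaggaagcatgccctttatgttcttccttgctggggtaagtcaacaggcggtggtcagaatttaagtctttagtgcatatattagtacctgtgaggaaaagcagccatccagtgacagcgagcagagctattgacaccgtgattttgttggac
Scgb3a1: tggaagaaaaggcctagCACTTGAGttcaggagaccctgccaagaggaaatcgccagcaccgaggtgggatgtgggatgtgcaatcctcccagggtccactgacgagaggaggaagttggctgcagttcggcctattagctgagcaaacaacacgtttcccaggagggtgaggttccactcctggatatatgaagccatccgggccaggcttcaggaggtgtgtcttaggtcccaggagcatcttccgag
Cyp2f4: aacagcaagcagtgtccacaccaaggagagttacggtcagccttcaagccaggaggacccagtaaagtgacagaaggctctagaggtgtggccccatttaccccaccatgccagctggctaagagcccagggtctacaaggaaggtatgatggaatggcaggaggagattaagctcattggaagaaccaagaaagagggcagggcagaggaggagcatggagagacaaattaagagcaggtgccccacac
Aldh1a1: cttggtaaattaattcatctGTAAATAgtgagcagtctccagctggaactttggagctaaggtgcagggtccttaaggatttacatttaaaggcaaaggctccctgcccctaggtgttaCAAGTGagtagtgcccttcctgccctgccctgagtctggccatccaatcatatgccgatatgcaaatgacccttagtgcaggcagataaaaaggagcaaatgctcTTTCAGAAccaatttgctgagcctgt

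Scgb1a1 held a match to each of the 5 motifs, with 2 matches to the C/EBP letters. Scgb3a2 held 1 match to the C/EBP letters and 1 to CTCAAG, and Aldh1a1 held 1 match each to the FOXA letters, the C/EBP letters and CAAGTG. In the 250 bases before Scgb3a1 a CTCAAG match overlapped a CAAGTG match, and before Cyp2f4 there was no match to any of the 5. Such letters are common: among 33469 rat promoters of the same length, 11.6% held TNTTTAC, 37.2% TTNNGNAA, 13.3% CTCAAG, 11.7% CAAGTG and 12.9% TATAAA. A match describes the sequence only.

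The libraries of day 1 held 1042336 to 2397971 counts, against 3471134 to 6279763 on day 7 and 3761631 to 6520180 on day 27, leaving aside 3 shallow libraries. These 3 held 105453, 149004 and 439393 counts and all belonged to 1000 ug/m3 rats, animal 037 of day 7 and animals 045 and 024 of day 27, and leaving them out changed the call of no member in any comparison. A difference of day 1 from a later day therefore comes with a difference in depth. The tissue label fits the markers of distal lung: Sftpc, the surfactant protein of type II cells, ranged over 2836 to 9390 CPM (counts divided by the library total, scaled by the TMM factors of edgeR, times 1000000), and Foxj1, the master regulator of motile cilia, over 8.78 to 52.7 CPM. Krt5, which marks basal cells of large airways, was at 0 in 38 of 72 libraries with a highest level of 0.815 CPM. Acan, a cartilage gene, was at 0 in 67 libraries, and the neuroendocrine gene Chga in 53. Some other genes listed for these cell types were at 0 in fewer libraries. Among them were Krt15 for basal cells (5 libraries), Comp for cartilage (9) and Pcsk1 for neuroendocrine cells (1, with a median of 11.6 CPM). As a check for liver and oesophagus, the levels of Alb, Apoa1, Krt4 and Krt13 were summed. The sum reached 64.9 CPM in an air H lung of day 7, against a median of 1.74 in that group.

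Scgb1a1 was called between days in 5 of 6 comparisons of air lungs, more often than any other member. On day 1 it averaged 3111 ± 514 CPM in 1000 ug/m3 lungs, 2903 ± 682 in air H, 3037 ± 576 in 200 ug/m3 lungs and 2724 ± 709 in air L (SD, n = 6 each). On day 7 it averaged 1280 ± 490 CPM in 1000 ug/m3 lungs, 1088 ± 215 in air H, 1839 ± 510 in 200 ug/m3 lungs and 1855 ± 340 in air L. On day 27 the means were 1950 ± 432, 1945 ± 374, 1917 ± 231 and 2042 ± 380 CPM in the same 4 groups. All 4 groups of day 1 thus stood above the 8 later groups by their means, and the 2 H groups of day 7 were lowest. Over all 72 lungs the level spanned 753 to 4042 CPM. Of the 11 steps between neighbours in the order of the means, 2 were larger than the pooled SD of the pair, those from air L of day 1 to air L of day 27 and from 200 to 1000 ug/m3 on day 7, and every neighbouring pair overlapped in its ranges.

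Aldh1a1 was the steadiest of the 5 between rats of a group and ran the other way with time. On day 1 its means were 347 ± 42.7 CPM in 1000 ug/m3 lungs, 341 ± 27.1 in air H, 352 ± 26.2 in 200 ug/m3 lungs and 332 ± 27.3 in air L. On day 7 they were 481 ± 93, 498 ± 75.9, 383 ± 23.2 and 400 ± 29.9 CPM in those groups. On day 27 they were 442 ± 40.9, 367 ± 22.7, 451 ± 52.5 and 460 ± 61.1 CPM. Here the 4 groups of day 1 were lowest and the 2 H groups of day 7 highest. Only the step from 1000 ug/m3 on day 27 to air L on day 7 was larger than the pooled SD. Its near-identical neighbour in rodent genomes, Aldh1a7, had a median of 2.85 CPM against 395 CPM for Aldh1a1. How the authors' counting treated reads that match both copies is not given in the sources used here, so the Aldh1a1 level is uncertain to that extent.

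Scgb3a2 averaged 117 ± 36.7 CPM in 1000 ug/m3 lungs of day 1, 137 ± 48.2 in air H, 151 ± 44.8 in 200 ug/m3 lungs and 131 ± 13.8 in air L. On day 7 the means were 175 ± 97.1, 159 ± 43.5, 120 ± 27.5 and 126 ± 18.2 CPM. On day 27 they were 125 ± 18.0, 91.8 ± 15.1, 116 ± 16.3 and 149 ± 60.1 CPM. The lowest of the 12 means belonged to air H of day 27, and only its step to the 200 ug/m3 lungs of that day was larger than the pooled SD. The highest mean, of 1000 ug/m3 on day 7, came with the widest spread, from 52.7 CPM in the shallow library of animal 037, which held 6 counts of the gene, to 315 CPM.

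Cyp2f4 was lower and looser. Its means were 25 ± 9.30 CPM in 1000 ug/m3 lungs, 27.8 ± 10.6 in air H, 25.6 ± 12.9 in 200 ug/m3 lungs and 31.3 ± 3.44 in air L on day 1. They were 34.8 ± 35.2, 30.7 ± 18.4, 28.8 ± 19.4 and 38 ± 8.93 CPM on day 7, and 29.9 ± 11.2, 22.7 ± 7.37, 33.4 ± 11.6 and 33.5 ± 17.1 CPM on day 27. No step between neighbouring means passed the pooled SD. Animal 037 had 0 counts of Cyp2f4, which at its depth allows a level of up to 26.3 CPM (3 counts, counting error only).

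Scgb3a1 was near the detection limit in many lungs and high in a few. Its means were 8.74 ± 4.87 CPM in 1000 ug/m3 lungs, 5.10 ± 4.15 in air H, 19 ± 17.1 in 200 ug/m3 lungs and 8.18 ± 6.47 in air L on day 1. They were 22.4 ± 33, 11.4 ± 17.9, 12.6 ± 27.1 and 7.88 ± 5.58 CPM on day 7, and 4.16 ± 5.32, 2.04 ± 1.53, 4.28 ± 1.76 and 22.6 ± 36.9 CPM on day 27. In 5 of the 12 groups, 3 of them on day 7 and the others on day 27, the SD was larger than the mean. The gene was at 0 in 2 libraries, animals 037 and 045, where 3 counts would have been 26.3 and 19 CPM. The median coefficient of variation over the 12 groups was 85.7% for Scgb3a1, 37.8% for Cyp2f4, 25.2% for Scgb3a2, 19.5% for Scgb1a1 and 8.74% for Aldh1a1, beside a median of 13% over 11100 genes. These 11100 genes were those above a minimum mean level, which Scgb3a1 did not reach. Of those genes, 99.2% varied less than Cyp2f4, 94.9% less than Scgb3a2, 83.5% less than Scgb1a1 and 17.5% less than Aldh1a1.

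**Figure D1:**
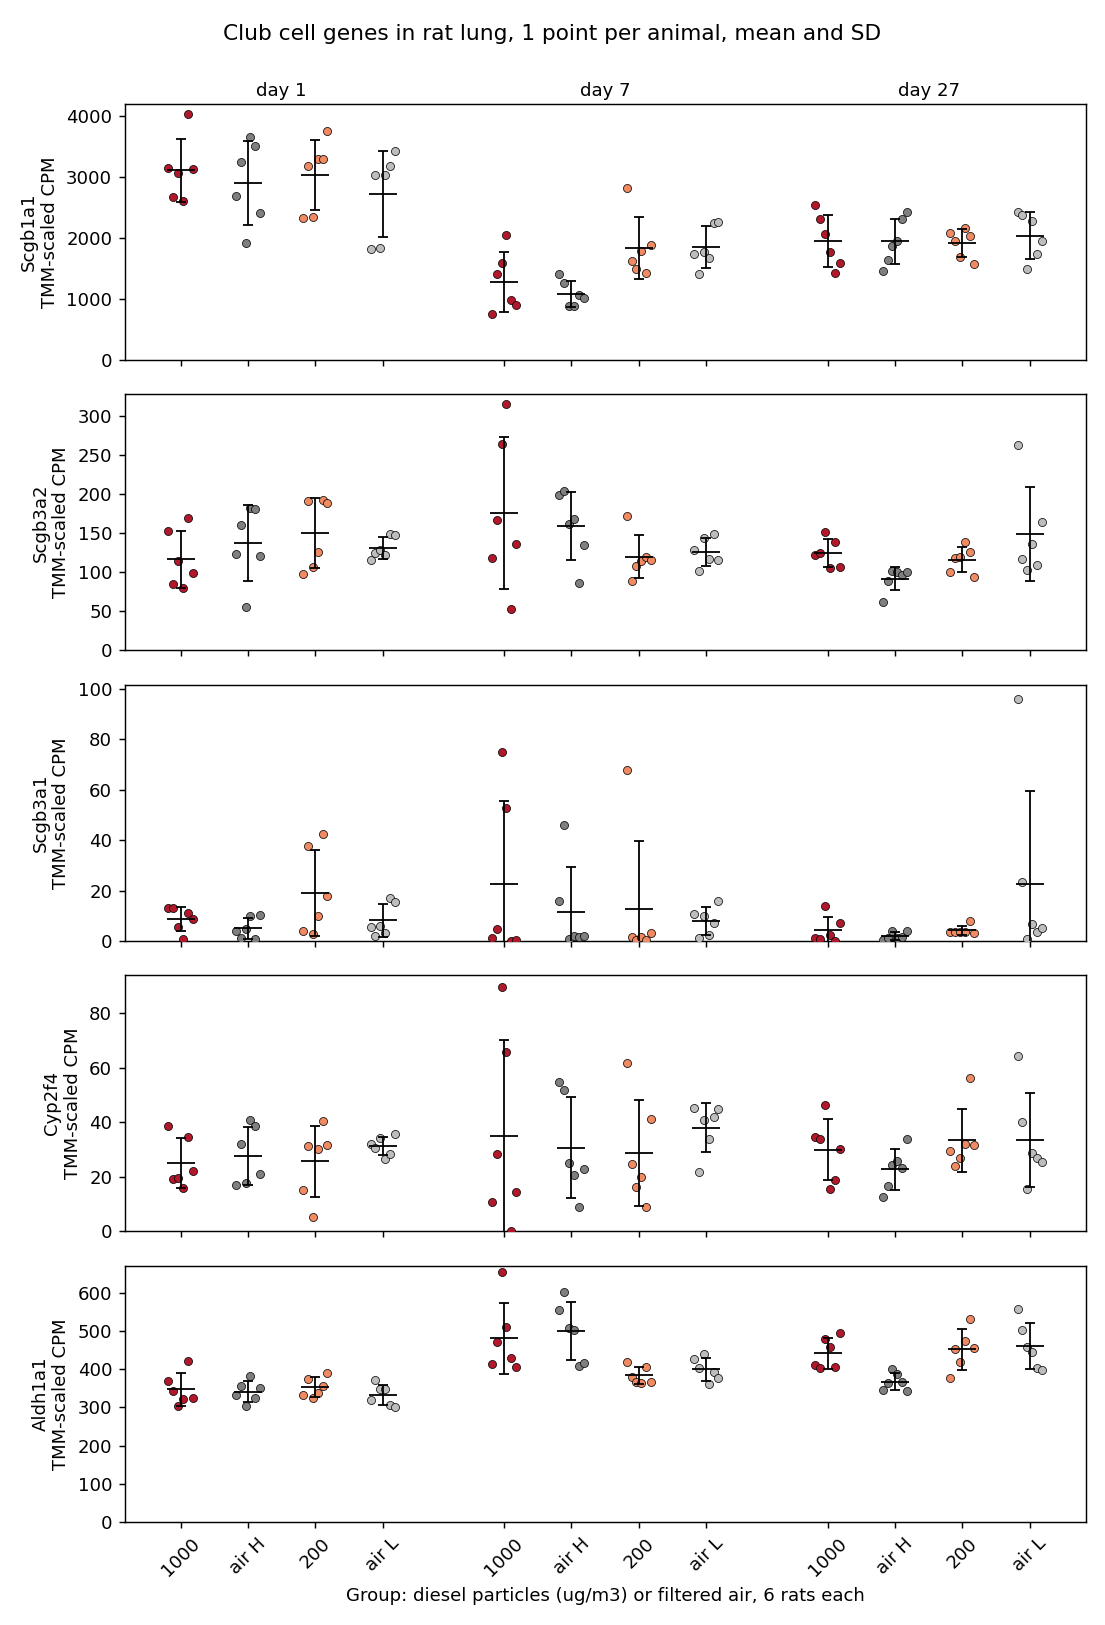
Level of each club cell gene in TMM-scaled CPM (linear axis from 0) in the 12 groups, with 1 point per rat and the mean and SD of each group of 6. Scgb1a1 is highest in the 4 groups of day 1 (means of 2724 to 3111 CPM), Aldh1a1 is lowest there (332 to 352 CPM), and Scgb3a1 is low in most rats but reaches 96.1 CPM in 1 air L rat of day 27.

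The first question was whether exposed lungs differed from the air lungs of the same letter and day. In none of these 6 comparisons did a club cell gene pass the test (edgeR's quasi-likelihood test with Benjamini-Hochberg adjustment over all genes tested, threshold 0.05). Of all genes tested, 0% passed in 5 of the comparisons, and 0.00698% passed for 200 ug/m3 on day 7. DESeq2 and limma-voom also called none of the 5. Of 30 tests of a member, 3 had an unadjusted p under 0.05, all of them on day 27. The data thus set bounds rather than changes: the 95% intervals of Scgb1a1, Scgb3a2 and Aldh1a1 lay within 2-fold either way in 6 of 6 comparisons and those of Cyp2f4 in 3, whereas those of Scgb3a1 did so in 0.

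Aldh1a1, the retinaldehyde dehydrogenase, had the lowest unadjusted p. In 1000 ug/m3 lungs of day 27 it ranged from 403 CPM over a median of 434 to 496, and in air H lungs of that day from 342 over 365 to 399. The lowest exposed lung stood narrowly above the highest air H lung, at 403 against 399 CPM. Its log2 fold change was 0.29 (SE 0.08), with an unadjusted p of 0.00124 and an adjusted p of 0.496 in edgeR, so it did not pass. Without the shallow libraries the log2 fold change was 0.29 (edgeR, adjusted p = 0.644). The air L lungs of that day ranged from 397 over 450 to 557 CPM, and so overlapped the 1000 ug/m3 lungs.

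Scgb3a2 gave the same picture. It ranged from 105 CPM over a median of 123 to 151 in 1000 ug/m3 lungs of day 27, against 62.5 over 98.4 to 102 in air H lungs. Again the ranges did not overlap, at 105 against 102 CPM, with a log2 fold change of 0.45 (SE 0.20, edgeR, adjusted p = 0.694). The value of 105 CPM came from shallow animal 024, which held 47 counts of the gene. The share of all genes with ranges apart was not computed. Cyp2f4, the naphthalene-activating P450, ranged from 15.6 over 32.0 to 46.2 CPM in 1000 ug/m3 lungs and from 12.6 over 23.8 to 33.7 in air H lungs. These ranges overlapped, and the log2 fold change was 0.63 (SE 0.31; edgeR, adjusted p = 0.714). Scgb1a1 differed by 0.04 and Scgb3a1 by 1.43 on the log2 scale, and neither passed. All 5 point estimates were thus above 0, with a median of 0.45 beside 0.00 over all genes tested. The 5 genes were correlated between rats, so the 5 signs are not independent. Air H of day 27 also had the lowest of the 12 group means for Scgb3a2, Scgb3a1 and Cyp2f4. For Scgb3a2 the 1000 ug/m3 lungs lay within the range of the air L lungs of that day, 103 to 263 CPM.

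The marker list of ciliated cells, the other main cell of the small airways, lay the same way: 19 of 19 tested genes had a positive log2 fold change, with a median of 0.35, and 0 passed. The cardiac list, which marks the heart muscle of pulmonary veins, was positive for 7 of 7 with a median of 0.45 and 0 passed. With the mean level of the ciliated list added to the fit, a setting chosen after seeing the data, the log2 fold changes were 0.25 (SE 0.08) for Aldh1a1, 0.21 (SE 0.17) for Scgb3a2, 0.00 (SE 0.13) for Cyp2f4, -0.22 (SE 0.73) for Scgb3a1 and -0.03 (SE 0.10) for Scgb1a1. Whether airway content accounts for the differences was not tested.

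For 200 ug/m3 on day 27 the largest difference was in Scgb3a1. It ranged from 3.06 CPM over a median of 3.70 to 7.83 in 200 ug/m3 lungs, against 0.786 over 5.93 to 96.1 in air L lungs. The air L range enclosed the exposed range. The log2 fold change was -2.35 (SE 0.83; edgeR, adjusted p = 0.402), and -0.85 without air L animal 081. Over the 12 fits that left out 1 rat the adjusted p ranged from 0.294 to 0.931 (edgeR). The other members differed by -0.35 for Scgb3a2, -0.08 for Scgb1a1, 0.02 for Cyp2f4 and -0.02 for Aldh1a1. Of the ciliated list 2 of 19 were positive, with a median of -0.15.

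On days 1 and 7 the differences were no clearer. Scgb1a1 differed by 0.11 (SE 0.18) for 1000 ug/m3 and by 0.16 (SE 0.18) for 200 ug/m3 on day 1, and by 0.26 (SE 0.22) and -0.02 (SE 0.22) on day 7. All 20 member ranges of these 2 days overlapped between exposed and air lungs, and the share of overlapping ranges over all genes was not computed. On day 7 at 1000 ug/m3 the ciliated list was positive for 19 of 19 genes, with a median of 0.31, beside 4 of 5 club cell genes. At 200 ug/m3 on day 7 it was positive for 5 of 19, with a median of -0.10, beside 1 of 5 club cell genes. On day 1 it was positive for 4 of 19 (median -0.10) at 1000 ug/m3 and for 12 of 19 (median 0.15) at 200 ug/m3, beside 3 and 4 of 5 club cell genes.

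**Figure D2:**
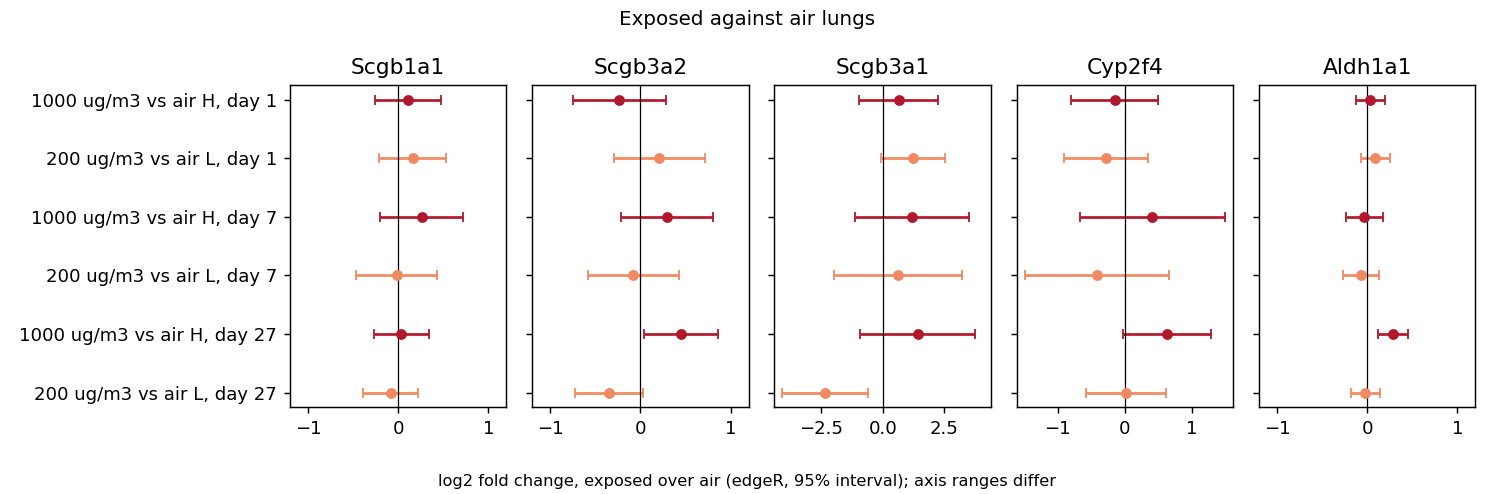
Log2 fold change with its 95% interval for each club cell gene in the 6 exposed against air comparisons (edgeR), with horizontal ranges that differ between panels. The intervals of Scgb1a1, Scgb3a2 and Aldh1a1 stay within 2-fold either way, those of Scgb3a1 are the widest, and no member passes the adjusted threshold.

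The effect of 1000 ug/m3 was then set against that of 200 ug/m3, each relative to its own air lungs. No member passed on any day, where 0.00813% of all genes passed on day 1 and 0% on days 7 and 27. On day 27 the differences of effect were 0.80 (SE 0.27; edgeR, adjusted p = 0.226) for Scgb3a2, 0.31 (SE 0.11; adjusted p = 0.242) for Aldh1a1 and 3.78 (SE 1.40; adjusted p = 0.258) for Scgb3a1. Without air L animal 081 the Scgb3a1 difference was 2.26. No member's effect passed the test for a change between days at either dose, and 0% of all genes did. With the 36 exposed lungs set against the 36 air lungs in 1 fit, 0.0134% of all genes passed and no member did, with log2 fold changes of 0.03 for Cyp2f4 to 0.46 for Scgb3a1.

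The air lungs themselves differed between the letters, which carry no exposure. On day 1 no member passed, with 1.68% of all genes called. On day 7, when 25.5% of all genes were called, Scgb1a1 was lower in air H lungs, at 881 CPM over a median of 1040 to 1419, against 1415 over 1757 to 2270 in air L lungs. The ranges met only at their ends, and the log2 fold change was -0.79 (SE 0.22; edgeR, adjusted p = 0.01). Aldh1a1 was higher there, at 409 over 505 to 602 CPM in air H lungs against 361 over 398 to 440 in air L lungs, a log2 fold change of 0.29 (SE 0.10; edgeR, adjusted p = 0.0255). Not all air H lungs stood apart. Animals 009 to 012 were at 502 to 602 CPM, above all air L lungs. Animals 033 and 034 were at 409 and 415 CPM, within the air L range. The 2 called genes thus went in opposite directions. With the mean level of the ciliated list in the fit both still passed, and Scgb3a2 passed as well, at 0.42 (edgeR, adjusted p = 0.0056). The Aldh1a1 call was lost when animal 009 or 010 of air H or animal 068 or 070 of air L was left out, with adjusted p of up to 0.0863 (edgeR).

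On day 27, when 14% of all genes were called, 3 of the 5 members were lower in air H lungs. Scgb3a2 ranged from 62.5 over 98.4 to 102 CPM in air H lungs and from 103 over 126 to 263 in air L lungs, without overlap, with a log2 fold change of -0.70 (SE 0.18; edgeR, adjusted p = 0.0154). Aldh1a1 ranged from 342 over 365 to 399 CPM in air H lungs and from 397 over 450 to 557 in air L lungs, with a log2 fold change of -0.33 (SE 0.08; edgeR, adjusted p = 0.00543). Scgb3a1 ranged from 0.499 over 1.38 to 4.03 CPM in air H lungs, against 0.786 over 5.93 to 96.1 in air L lungs, with a log2 fold change of -3.42 (SE 0.92; edgeR, adjusted p = 0.017). That last call rested on 1 lung: without air L animal 081 the log2 fold change was -1.92 (edgeR, adjusted p = 0.0979). With all lungs in, limma-voom did not call it (-2.20, adjusted p = 0.103). Without the same lung the Scgb3a2 log2 fold change was -0.46, and it still passed in each of the 12 fits that left out 1 rat (edgeR, adjusted p of up to 0.0376). Aldh1a1 stood on opposite sides on the 2 days, higher in air H on day 7 and lower on day 27.

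Of the ciliated list 5 of 19 fell in air H lungs of day 27 and 0 rose, with a median of -0.42, among them Tppp3 (-0.35), Dynlrb2 (-0.64) and Mlf1 (-0.66), genes of cilia and microtubules. Genes of the other lists are named here by smallest p among those called and do not stand for their lists. Of the other club cell genes Cldn10, a tight junction protein, fell by 0.69 on the log2 scale. Krt15, a keratin that is also in the basal list, fell by 1.22, with a median of 1.95 CPM over the 72 libraries. Of all genes tested, 14% were called in this comparison. With the ciliated level in the fit Aldh1a1 still passed, at -0.26 (edgeR, adjusted p = 0.0312), whereas Scgb3a2 at -0.40 (adjusted p = 0.108) and Scgb3a1 at -0.93 (adjusted p = 0.415) did not. Nkx2-1, whose product is known to activate secretoglobin genes, fell in air H lungs by 0.51 on day 1 and by 0.64 on day 7, and on day 27 it rose, at a log2 fold change of 0.38 (edgeR, adjusted p = 0.0337). On day 7 Scgb1a1 was lower in air H lungs too, whereas Aldh1a1 was higher and Scgb3a2, at 0.32, did not pass. On day 27 the 3 called members were lower where Nkx2-1 was higher, and on day 1 no member passed. Nkx2-1 is 1 of 16 listed regulators, and a link to the members was not tested. Of the retinoic acid genes, Rara, a retinoic acid receptor, fell by 0.28 in air H lungs on day 7 and rose on day 27, at 0.27 (edgeR, adjusted p = 0.00401).

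Between days, Scgb1a1 and Aldh1a1 had most of the calls in the lungs of air rats. In air H lungs Scgb1a1 was lower on day 7 than on day 1, at 881 over 1040 to 1419 CPM on day 7 and 1913 over 2965 to 3654 on day 1, without overlap, and 38.6% of all genes were called. Its log2 fold change was -1.42 (SE 0.20; edgeR, adjusted p = 1.08e-06). Aldh1a1 was higher on day 7, at 409 over 505 to 602 CPM on day 7 and 304 over 341 to 381 on day 1, also without overlap, with a log2 fold change of 0.54 (SE 0.10; edgeR, adjusted p = 1.44e-05). On day 27 both genes stood nearer to their day 1 levels. Against day 7, where 30% of genes were called, Scgb1a1 was higher on day 27 by 0.81 (SE 0.20; edgeR, adjusted p = 0.0022) and Aldh1a1 fell by 0.47 (SE 0.09; edgeR, adjusted p = 0.000115). Scgb3a2 also fell, by 0.83 (SE 0.24; edgeR, adjusted p = 0.00817). Scgb3a1 was at -2.51 (SE 0.99; edgeR, adjusted p = 0.055), or -1.18 without air H animal 010 of day 7. DESeq2 called it (adjusted p = 0.0481), as did edgeR with the ciliated level in the fit (-2.04, adjusted p = 0.0152). Against day 1, where 10.5% of genes were called, day 27 differed in Scgb1a1 alone among the 5, at -0.61 (SE 0.20; edgeR, adjusted p = 0.0419). That call was lost in 8 of 12 fits that left out 1 rat, without air H animals 001, 002, 004 or 025 of day 1 or 017, 018, 019 or 020 of day 27 (edgeR, adjusted p of up to 0.112).

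In air L lungs the same 2 genes were called. Scgb1a1 was lower on day 7 than on day 1, at -0.58 (SE 0.17; edgeR, adjusted p = 0.0196), and Aldh1a1 higher, at 0.24 (SE 0.08; edgeR, adjusted p = 0.0354), where 13.6% of genes were called. On day 27 against day 1, where 31.9% were called, Scgb1a1 was at -0.46 (SE 0.17; edgeR, adjusted p = 0.038) and Aldh1a1 at 0.42 (SE 0.08; edgeR, adjusted p = 3.37e-05). The calls on day 7 were lost for Scgb1a1 without animal 054 or 066 and for Aldh1a1 without animal 049, 053, 054, 065 or 067. The Scgb1a1 call on day 27 was lost without animal 050, 052, 053, 054, 084, 086 or 087. With the ciliated level in the fit Cyp2f4 was also called on day 27 against day 1, at -0.70 (edgeR, adjusted p = 0.0247). Day 27 against day 7 gave no call among the members, with 16.2% of all genes called; Scgb3a1 was at 1.46 (SE 0.91; edgeR, adjusted p = 0.306). Since animals of day 1 were sequenced less deeply, the share of the difference that goes with depth cannot be told apart from that of time.

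Of 17 other genes known from club cells, 6 rose and 1 fell in air L lungs of day 27 against day 1, where 31.9% of all genes were called. Among them were the P450 genes Cyp4b1 (0.60) and Cyp2b1 (0.63) and the junction gene Cldn10 (1.81). In air H lungs of day 7 against day 1, 2 of the 17 rose and 1 fell, beside 38.6% of all genes called: Cyp4b1 (0.53) and Sec14l3 (0.40) rose, and Cyp2s1, another P450, was at -1.31, lower on day 7 like Scgb1a1. Nkx2-1 was lower in air L lungs of day 27, with a mean of 70.2 CPM, against 139 CPM on day 1 (edgeR, adjusted p = 3.81e-09). Among the retinoic acid genes in that comparison, with the same 31.9% of all genes called, 1 of 12 rose and 4 fell, including Cyp26b1, which degrades retinoic acid, at -1.65.

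The rats of a group also differed among themselves, and the 5 genes did so together when all groups were pooled. Each rat's log2 CPM was taken as its deviation from the mean of its group, and the 10 pairs of members were correlated over 72 rats. All 10 passed the permutation test after adjustment over the 10 pairs. Scgb3a2 and Cyp2f4 had a Pearson r of 0.80 and a Spearman rho of 0.72, with an r of 0.77 without the 2 rats farthest from the median and p = 1e-05 (permutation test, adjusted p = 1.4e-05), the smallest the permutations can give. Scgb3a1 and Cyp2f4 followed with r = 0.72 and rho = 0.68, and Scgb1a1 and Scgb3a2 with r = 0.66 and rho = 0.66. Scgb1a1 and Aldh1a1 were the loosest pair, at r = 0.38 and rho = 0.34 (permutation test, p = 0.0042, adjusted p = 0.0042). Within single groups of 6 rats, r was positive in 12 of 12 groups for Scgb3a2 and Cyp2f4 and in 9 for Scgb1a1 and Aldh1a1. For Scgb3a1 and Aldh1a1 it ran from -0.93 to 0.90. By day, 5 pairs passed on day 1, 10 on day 7 and 8 on day 27, and 10 passed without the shallow libraries.

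**Figure D3:**
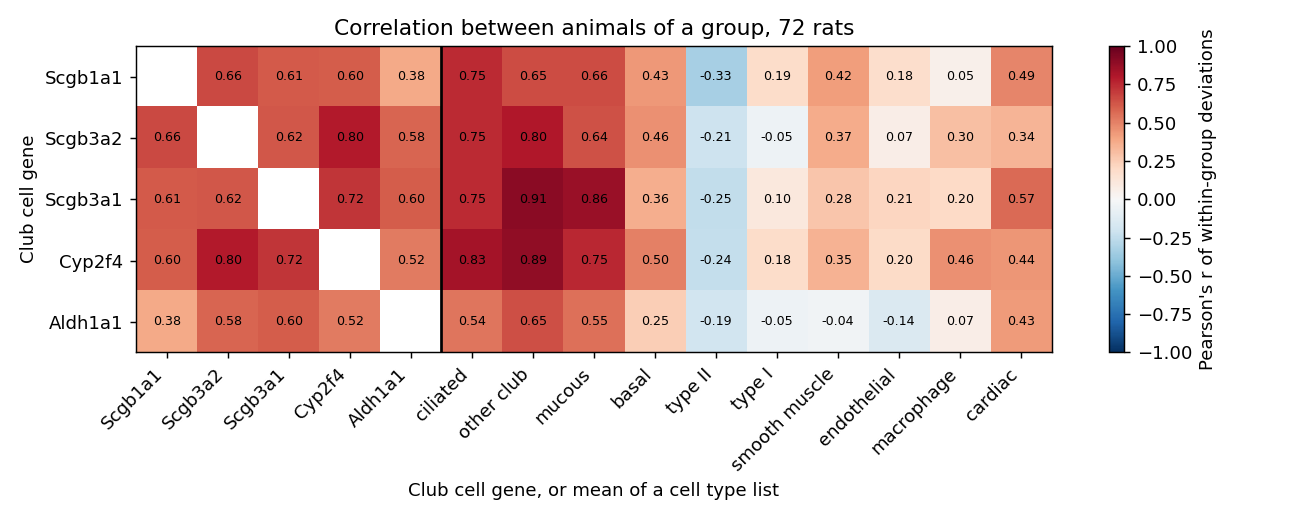
Pearson correlation of the within-group deviations of log2 CPM for the pairs of club cell genes and for each gene with the marker lists (72 rats). All member pairs are positive, from 0.38 to 0.80, and the ciliated list is positive with all 5 genes.

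Against the marker lists of other lung cells, 30 of 50 relations passed after adjustment over the 50, and 27 did without the shallow libraries. The ciliated list had r = 0.83 (rho = 0.83) with Cyp2f4, 0.75 (0.83) with Scgb1a1, 0.75 (0.72) with Scgb3a2, 0.75 (0.69) with Scgb3a1 and 0.54 (0.51) with Aldh1a1. Without the 2 farthest rats these r were 0.76, 0.73, 0.68, 0.71 and 0.48 in the same order of genes. Within days, r with Scgb1a1 was 0.80, 0.76 and 0.76 on days 1, 7 and 27. With Scgb3a2 it was 0.87 and 0.93 on days 1 and 7 but 0.38 on day 27, where it did not pass (permutation test, adjusted p = 0.12). With Aldh1a1 it was 0.44, 0.64 and 0.42, and passed on day 7 only.

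The other 17 club cell genes were correlated with all 5 members, from r = 0.65 with Aldh1a1 to 0.91 with Scgb3a1. The type I, endothelial and macrophage lists passed with none of the 5. The type II list, the surfactant cells of the alveoli, was negative with all 5, from -0.33 with Scgb1a1 to -0.19 with Aldh1a1, and by r passed with Scgb1a1 and Cyp2f4, that with Cyp2f4 not without the shallow libraries (permutation test, adjusted p = 0.084). By rho it passed with Scgb3a2 and Scgb3a1 as well (permutation test, adjusted p = 0.035 and 0.04). In contrast, the cardiac list was positive with all 5, from 0.34 with Scgb3a2 to 0.57 with Scgb3a1. The mucous list passed with all 5, from r = 0.55 with Aldh1a1 to 0.86 with Scgb3a1, and for these 2 genes its r was above that of the ciliated list. The basal list (2 genes) passed with 4 members, from 0.36 with Scgb3a1 to 0.50 with Cyp2f4, and the smooth muscle list with 4, from 0.28 with Scgb3a1 to 0.42 with Scgb1a1. Without the shallow libraries Scgb3a1 no longer passed with the basal list (0.23) or the smooth muscle list (0.21). The lists are not fully separate. Muc5b and Bpifb1 are in both the mucous and the other club cell list, and Krt15 is in both the basal and the other club cell list. The club cell genes of a lung piece thus varied between rats together with several lists, of which the ciliated, mucous, other club cell and cardiac lists passed with all 5. Such relations describe pieces of tissue and were not tested for a cause.

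**Figure D4:**
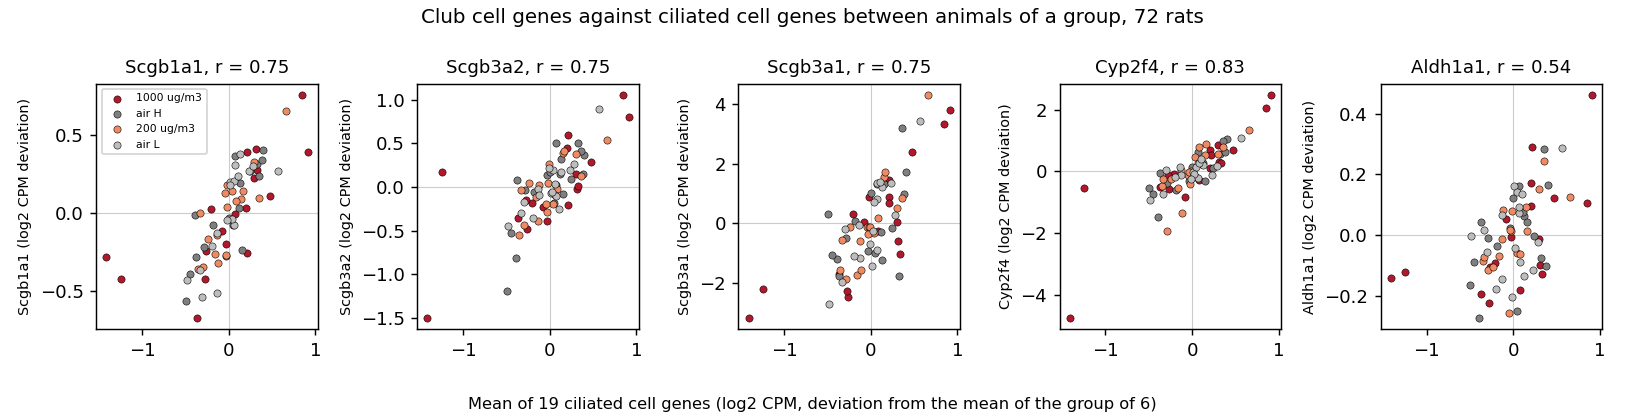
Within-group deviation of each club cell gene (log2 CPM, vertical axis) against that of the ciliated list (log2 CPM, horizontal axis), with 1 point per rat (72 rats), coloured by exposure or air group, and vertical ranges that differ between panels. Both deviations go up together for all 5 genes, with r from 0.54 for Aldh1a1 to 0.83 for Cyp2f4. The 2 points farthest left are animals 037 and 045, 1000 ug/m3 rats whose shallow libraries held 105453 and 149004 counts.

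The genes most like each member, by the Pearson r of the same deviations over 72 rats among 11273 genes, are given by name, and 7 of the 25 places in these lists of 5 were held by genes of the ciliated marker list. For Scgb1a1 these were Cfap44 (0.84), Spag17 (0.84) and Hydin (0.83), and for Scgb3a2 Cfap43 (0.79) was highest. Without the 3 shallow libraries Cdhr4 (0.76) came first for Scgb3a2, with Cfap43 at 0.75. For Scgb3a1 the mucin gene Muc5b came first at 0.86, before the dynein gene Dnah6 at 0.78. For Cyp2f4 it was Ccdc40 at 0.88, a gene at 0 in 1 library. Without the 3 shallow libraries Dnah6 (0.85) came first for Cyp2f4 and Ccdc40 had 0.74. For Aldh1a1 the values were lower, led by the tubulin gene Tubb4b at 0.58, and without the shallow libraries by Cd24 at 0.61. These r describe likeness over the rats, which share libraries and tissue pieces, and carry no p.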

How the data were processed

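RNA from rat lung was made into stranded libraries after removal of ribosomal RNA, per the labels. The authors deposited raw counts per gene symbol. Per the submitters' processing notes the tools were bcl2fastq 2.19, Trimmomatic 0.35, HISAT2 2.1.0, SAMtools 1.8 and HTSeq 0.6.1, with the build Rnor_6.0. Neither the gene annotation used nor whether HTSeq counted by strand is stated in the labels or notes. Genes that share reads with a copy or an overlapping gene are uncertain to that extent.

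The counts were fitted per day (differences between days per letter) with edgeR 4.0.16 in R 4.3.3, using TMM factors, its expression filter, robust quasi-likelihood tests and Benjamini-Hochberg adjustment at 0.05. DESeq2 1.42.0 and limma 3.58.1 (voom) were alternatives. Standard errors were the log2 fold change over the root of F. Correlations used log2 CPM with a prior count of 2 and 100000 permutations within groups. The test was run on simulated data (14761 genes, 1000 ug/m3 against air H on day 27) and recovered 88.9% of 2-fold and 53.5% of 1.5-fold changes. It also called 4 unchanged genes. The simulation held many changes at once, which eases the adjusted threshold, whereas 0 genes passed in the real comparison. Its changed genes were taken at random, so these shares do not hold for the 5 members, whose spreads differ widely. All 5 members are named in the comparisons, and of each list up to 3 called genes with the smallest p. The members and lists were chosen with earlier results of these data known. The labels do not tie rats to cages or litters, so p-values measure the spread between these rats.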

Additional observations from a re-analysis of the deposited data

Results flagged for a closer look

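Of 60 groups of 6 rats (5 genes in 12 groups), 8 held 1 rat whose gap to the nearest other rat was a larger share of the range of its group than Dixon's 95% limit for 6 values. For independent sets of normally distributed values, chance gives about 1 in 20. The CPM of Scgb3a1 were skewed and the 5 genes were correlated between rats, so the 8 cannot be read as an excess. Animal 073, of the 200 ug/m3 rats of day 7, was highest for Scgb1a1 at 2820 CPM (nearest 1880), for Scgb3a2 at 171 (nearest 120) and for Scgb3a1 at 67.9 (nearest 3.28). Animal 017, an air H rat of day 27, was lowest for Scgb3a2 at 62.5 CPM (nearest 88.8). Scgb3a1 was highest in animal 010 of air H on day 7 at 46 CPM (nearest 16), in animal 093 of 200 ug/m3 on day 27 at 7.83 (nearest 3.73) and in animal 081 of air L on day 27 at 96.1 (nearest 23.3). Animal 093 was also highest for Cyp2f4, at 56.2 CPM (nearest 32.0). The cause was not tested.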

How the results depend on the processing

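No member was called in any exposed against air comparison under any alternative. Leaving out 1 rat at a time gave 0 to 0 calls there and for dose differences. It gave 1 to 2 calls for air H against air L on day 7 and 2 to 3 on day 27, and 0 on day 1. For air H it gave 0 to 2 calls on day 27 against day 1, 3 to 4 on day 27 against day 7 and 2 to 2 on day 7 against day 1, and for air L 1 to 2, 0 to 1 and 0 to 2. Air H against air L on day 7 had 1 call with no filter, and on day 27 it had 1 with the ciliated level in the fit; air L on day 27 against day 7 then had 1 call, Cyp2f4. limma-voom gave 2 calls for air H against air L on day 27 and DESeq2 4 for air H on day 27 against day 7, Scgb3a1 being lost and gained. With a filter of at least 1 CPM in 6 libraries, with no filter or with no scaling factors, day 27 against day 1 had 0 calls for air H and 1 for air L, Scgb1a1 being lost each time. The change of the 200 ug/m3 effect on Scgb3a1 from day 7 to day 27 was 0.46 with limma-voom (adjusted p = 0.953), against -2.97 with edgeR. Correlated member pairs numbered 5 of 10 on day 1 alone. Relations with lists that passed numbered 17 in air rats, 8 on day 1 alone and 15 on day 27 alone. No paired analysis was possible because each animal number occurs once and the labels pair no animals. The shallow day 1 libraries and the 3 shallowest limit Scgb3a1 and Cyp2f4 most. The cause of these changes was not tested.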
